A study of Rattus norvegicus with 9 samples.

Results

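Glutathione transferases, glutathione peroxidases, peroxiredoxins, thioredoxins, glutaredoxins and superoxide dismutases were followed in rat kidney RNA. Members were taken by a rule on gene symbols, which does not cover every gene of these families, from a table of 36267 features, together with Gss, Gsr and Ggct, enzymes of glutathione synthesis, recycling and breakdown. A total of 49 symbols matched. Of these, 43 reached at least 1 CPM in at least 3 libraries and were tested among 16731 such features, and 6 did not. CPM are read counts scaled so that every library has the same total.

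Kidneys came from 9 rats weighing 180 to 200 g, in 3 groups of 3. Controls were untreated. In the contrast-induced acute kidney injury (CIAKI) group, rats received the loop diuretic furosemide into the stomach at 200 mg/kg and were dehydrated for 6 h. The iodinated contrast medium iopromide (370 mg I/mL) was then injected into a tail vein at 15 mL/kg. Before these same steps, rats of the icariin group were given icariin, a plant flavonoid, into the stomach for 3 days at 100 mg/kg daily. No group had furosemide, dehydration, contrast or icariin alone. Furosemide, dehydration and contrast therefore cannot be told apart, and icariin was seen only on top of them, against CIAKI. The labels give no strain, sex or time of kidney removal. Libraries held 64380578 to 90398405 reads, so 1 CPM stood for 64.4 to 90.4 reads. Defining kidney genes were present in all libraries. The 11 proximal tubule markers in the table summed to 22660 to 26470 CPM in control, 10102 to 13704 CPM in CIAKI and 22852 to 24606 CPM in icariin libraries, and 8 of the 11 fell in CIAKI. Genes of the adrenal cortex, which lies next to the kidney, summed to at most 2.1 CPM in any library.

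Glutathione is the main small thiol of cells, and it is kept reduced by glutathione reductase at the cost of NADPH. Glutathione peroxidases use it to reduce hydrogen peroxide and lipid peroxides, and glutathione transferases attach it to electrophiles so that these can be exported. Peroxiredoxins reduce peroxides with electrons from thioredoxin, and superoxide dismutases make the hydrogen peroxide that these systems remove. The proximal tubule is known for a high turnover of glutathione and for releasing the plasma enzyme Gpx3. Many of these genes are known targets of the transcription factor NRF2, which binds the antioxidant response element.

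That element has the core TGACNNNGC, where N is any base, and the core was searched on both strands of the promoter windows that RefSeq gives on build GRCr8 (250 bases before to 50 after each annotated start). Windows were found for 40 of the 49 members by symbol, and 12.1% of all 33469 windows hold the core. Among members with a window, it was found in 4 of 12 that rose in CIAKI (Gpx2, Gstm5, Gstp1 and Prdx1), in 1 of 7 that fell (Gstz1) and in 5 of 17 that were not called, against 13.1% of all genes with a window. The 250 bases before the start are printed for the 4 that rose, in the direction of the gene, with each match to the core, on either strand, in capitals.
Gpx2, chr6:101230034-101230283, minus strand: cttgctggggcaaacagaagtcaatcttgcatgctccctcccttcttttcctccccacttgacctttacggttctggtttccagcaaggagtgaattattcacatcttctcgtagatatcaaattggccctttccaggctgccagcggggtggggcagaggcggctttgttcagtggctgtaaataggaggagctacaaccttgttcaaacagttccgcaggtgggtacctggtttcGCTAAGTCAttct
Gstm5, chr2:198219519-198219768, plus strand: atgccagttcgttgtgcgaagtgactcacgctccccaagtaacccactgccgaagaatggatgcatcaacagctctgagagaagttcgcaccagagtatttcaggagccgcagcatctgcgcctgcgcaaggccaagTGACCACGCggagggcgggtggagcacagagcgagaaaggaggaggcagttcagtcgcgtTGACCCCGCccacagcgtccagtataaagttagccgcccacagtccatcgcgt
Gstp1, chr1:210769706-210769955, minus strand: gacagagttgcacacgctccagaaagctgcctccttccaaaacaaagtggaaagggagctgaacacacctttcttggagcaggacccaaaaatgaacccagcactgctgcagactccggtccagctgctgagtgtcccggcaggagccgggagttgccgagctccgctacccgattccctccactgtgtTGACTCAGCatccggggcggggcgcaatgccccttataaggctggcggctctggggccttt
Prdx1, chr5:135383656-135383905, plus strand: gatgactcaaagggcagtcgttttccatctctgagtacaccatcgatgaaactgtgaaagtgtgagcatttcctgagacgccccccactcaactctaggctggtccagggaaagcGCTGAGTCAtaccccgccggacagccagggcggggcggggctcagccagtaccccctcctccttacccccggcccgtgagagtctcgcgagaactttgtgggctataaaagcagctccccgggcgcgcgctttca
The first base of the match lies 13 bases before the start in Gpx2, 61 in Gstp1 and 135 in Prdx1, and Gstm5 has matches at 113 and 53 bases. The matches of Gstp1 and Prdx1 also contain the core of the AP-1 site (TGACTCA or its reverse complement TGAGTCA), so the motifs overlap there. Gstm1 and Gstm2, which rose in CIAKI, have windows without the core. A match is a description of these letters and no measure of binding.

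In CIAKI kidneys, 15 of the 43 tested members rose and 10 fell against control, and 18 did not pass the test. Calls are at an adjusted p below 0.05 in a limma fit of log2(CPM + 1) values of all features, in which 41.3% of the 16731 features were called, 20.8% higher and 20.5% lower. The members' median log2 fold change was -0.03, against 0 for all features. The 15 that rose were 4 mu class transferases, 3 peroxiredoxins, 3 glutaredoxins, Gstp1, Mgst1, Gpx2, Gsr and Txn1. The 10 that fell were 3 theta class transferases, Gstk1, Gstz1, Gsto1, Mgst3, Gss, Ggct and Sod3. In icariin kidneys 13 members were lower and 11 higher than in CIAKI kidneys, where 39.4% of all features were called, 20.2% lower and 19.2% higher, and the members' median was 0.18 against 0.02. Against control, 1 member was called in icariin kidneys, Gpx2, in a comparison that called 0.628% of all features, 0.4% higher and 0.227% lower. The CIAKI libraries enter the comparisons with control and with icariin with opposite sign, so opposite calls in these arise in part by construction.

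**Figure D1:**
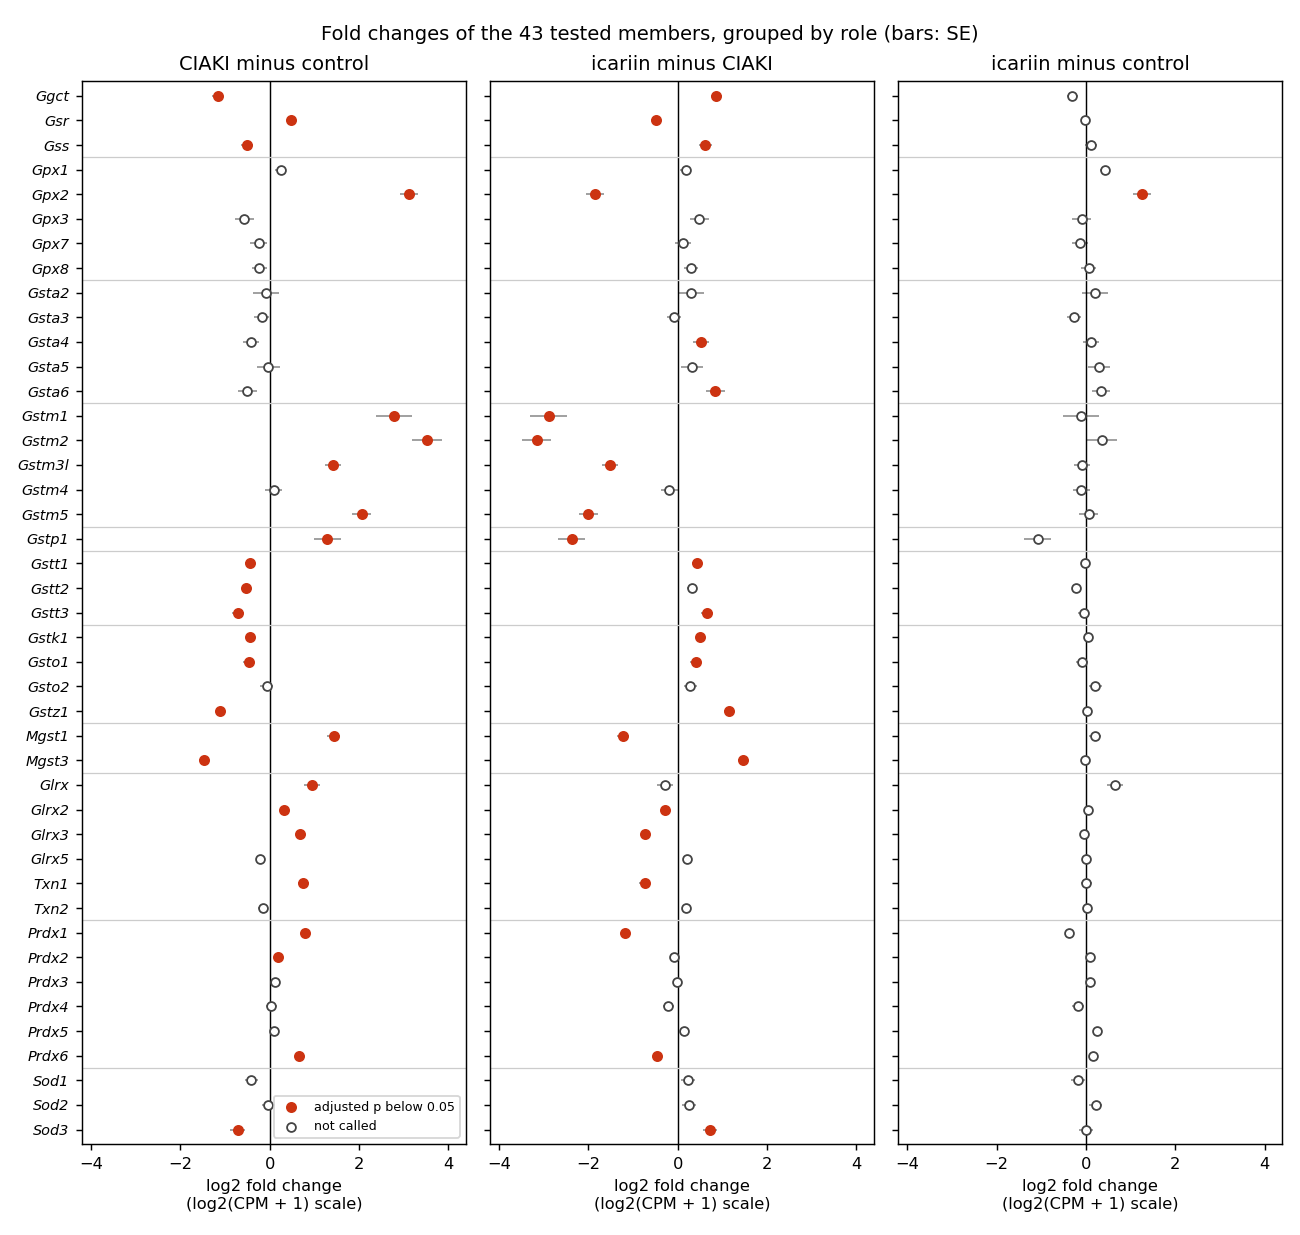
Log2 fold changes of the 43 tested members on the log2(CPM + 1) scale in the 3 comparisons, with bars for the SE (often smaller than the point) and lines between role groups from Ggct to Sod3. Filled points passed an adjusted p of 0.05; Gstm2 lies farthest to the right in CIAKI against control (3.52), and only Gpx2 is filled in icariin against control.

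The genes of synthesis, breakdown and recycling did not move together. Gsr, the glutathione reductase, rose, while Gss, the synthetase that adds glycine in the last step of synthesis, and Ggct, which breaks down gamma-glutamyl amino acids, fell. Ggct was at 74.1, 76.2 and 78 CPM in control, 33.2, 28.9 and 39 CPM in CIAKI and 71.6, 59.1 and 55.4 CPM in icariin libraries. All CIAKI libraries lay below all others, and every icariin library lay below every control library. The log2 fold change was -1.16 in CIAKI against control (SE 0.12, adjusted p = 0.000183) and 0.86 in icariin against CIAKI (SE 0.12, adjusted p = 0.000867). Against control, the icariin value of -0.3 was not called (adjusted p = 0.43). Gsr rose by 0.48 in CIAKI (adjusted p = 0.00385), from 320 ± 16.4 to 450 ± 57 CPM (SD, n = 3 each), and stood at 318 ± 12 CPM with icariin. Gss went from 364 ± 65.5 to 253 ± 25.7 CPM (log2 fold change -0.51, adjusted p = 0.016) and stood at 390 ± 39.3 CPM with icariin. The Gss call in CIAKI ended without control 1, control 2 or CIAKI 3 (adjusted p = 0.0504, 0.0543 and 0.0514).

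Of the 5 glutathione peroxidases tested here, 1 was called in CIAKI, Gpx2, and it rose. Gpx2 is a selenium enzyme known mainly from the epithelium of the gut. It was at 4.38, 2.91 and 2.67 CPM in control, 29, 41.2 and 38.8 CPM in CIAKI and 7.36, 9.58 and 10.9 CPM in icariin libraries. The groups were fully separate, with the icariin libraries between the others. Its log2 fold change was 3.12 in CIAKI against control (SE 0.2, adjusted p = 2.62e-05) and -1.86 in icariin against CIAKI (SE 0.2, adjusted p = 0.000268). Against control it was 1.26 higher in icariin kidneys (SE 0.2, adjusted p = 0.0367), and this call ended without control 2 (adjusted p = 0.123), control 3 (0.159), CIAKI 3 (0.0511), icariin 2 (0.114) or icariin 3 (0.128). edgeR on recovered reads did not call this difference (1.49, adjusted p = 0.0511).

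Gpx3, the secreted plasma enzyme, was lower in every CIAKI library, but the main test did not call it. It was at 16119, 14617 and 18126 CPM in control, 10962, 10407 and 11507 CPM in CIAKI and 15383, 14435 and 15885 CPM in icariin libraries. The log2 fold change was -0.57 in CIAKI against control (SE 0.21, adjusted p = 0.0581) and 0.48 in icariin against CIAKI (SE 0.21, adjusted p = 0.104). The first value passed with edgeR (adjusted p = 0.00307) and DESeq2 (2e-06) on recovered reads, with smaller pseudocounts of 0.5 (0.0431) and 0.1 CPM (0.0215), with a minimum of 5 CPM (0.0175) and with annotated genes only (0.0484), while quantile normalization gave -0.26. The second value passed with edgeR (adjusted p = 0.00706), DESeq2 (9.41e-05), a pseudocount of 0.1 CPM (0.0452) and the minimum of 5 CPM (0.0372). Most proximal tubule markers moved with Gpx3, and some markers of other kidney cells also fell in CIAKI. In bulk tissue fewer cells of a type and less RNA per cell cannot be told apart. Gpx1, the cytosolic enzyme, and Gpx7 and Gpx8, which act in the endoplasmic reticulum, were not called, with log2 fold changes of 0.25, -0.25 and -0.23 in CIAKI. The Gpx1 value of 0.18 in icariin against CIAKI was called without CIAKI 3 (0.3, adjusted p = 0.0456). Gpx5 and Gpx6 had no reads in any library, which allows a level of up to 0.0332 to 0.0466 CPM (3 reads, counting error only, since reads are not independent molecules).

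The mu class transferases held the member with the largest log2 fold change in CIAKI on the log2(CPM + 1) scale, Gstm2. Of 7 matching genes 5 were tested, 4 rose in CIAKI, and 4 were lower with icariin than in CIAKI. Gstm2 was at 45.5, 49.9 and 48.6 CPM in control, 702, 848 and 298 CPM in CIAKI and 50.3, 63.4 and 74.7 CPM in icariin libraries. CIAKI 3 stood below the other CIAKI libraries, but above every library of the other groups. Its log2 fold change was 3.52 in CIAKI against control (SE 0.33, adjusted p = 0.000105) and -3.16 in icariin against CIAKI (SE 0.33, adjusted p = 0.000214). Gstm1 was at 75, 61 and 116 CPM in control, 697, 443 and 573 CPM in CIAKI and 37.7, 85.2 and 131 CPM in icariin libraries. The control and icariin libraries overlapped and the CIAKI libraries lay above both. Its log2 fold changes were 2.78 and -2.89 (SE 0.41 each, adjusted p = 0.000923 and 0.000868).

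Gstm5 followed the same course at a lower level, with 2.67, 3.23 and 2.34 CPM in control, 17.9, 15.3 and 11.2 CPM in CIAKI and 2.11, 3.52 and 3.14 CPM in icariin libraries. Its log2 fold changes were 2.06 and -2 (SE 0.21 each, adjusted p = 0.000149 and 0.000206). Gstm3l was at 0.301, 0.101 and 0.264 CPM in control, 2.61, 2.72 and 1.6 CPM in CIAKI and 0.0306, 0.0991 and 0.332 CPM in icariin libraries (log2 fold changes 1.42 and -1.51, SE 0.18 each, adjusted p = 0.000486 and 0.000433). That scale understates low genes, and edgeR on recovered reads gave 3.36 and -3.82 for Gstm3l. It passed the minimum of 1 CPM only through the CIAKI libraries, so it had to differ. Without it 14 of 42 tested members rose in CIAKI and 12 were lower with icariin. Gstm4 was not called, at 30.1 ± 5.5 CPM in control, 32 ± 4.28 CPM in CIAKI and 28.3 ± 6.62 CPM in icariin kidneys (log2 fold change 0.09 in CIAKI, adjusted p = 0.742). In RefSeq's gene order the mu class members Gstm5, Gstm6l, Gstm6, Gstm2, Gstm1 and Gstm4 lie within a stretch of 9 coding genes, with Gstm4 next to Gstm1. Gstm6 and Gstm6l stayed under the minimum. Gstm6 was at 0.758, 0.193 and 0.0621 CPM in CIAKI and at most 0.0574 CPM in other libraries, and Gstm6l reached at most 0.0613 CPM. Transferases of a class are similar in sequence, and the sources used here do not say how shared reads were counted, so values within the mu and alpha classes are uncertain.

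**Figure D2:**
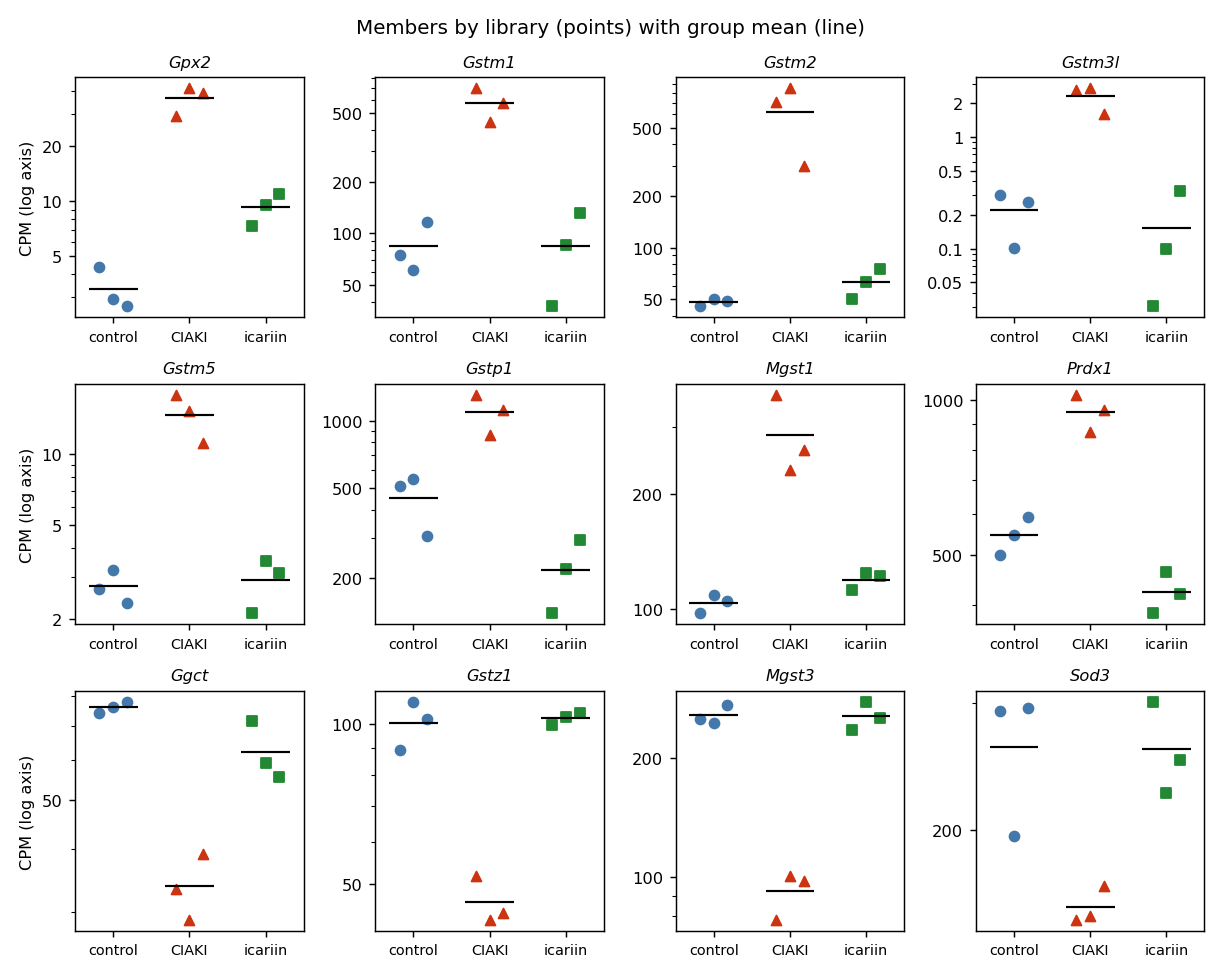
Level of 12 members in CPM (log axis, own scale per panel) in each library, with circles for control, triangles for CIAKI, squares for icariin and a line at the group mean. In all 12 panels the CIAKI libraries lie apart from the others, and in the Gpx2 panel the icariin libraries, at 7.36 to 10.9 CPM, lie between the groups. The 12 were picked among members called in CIAKI against control, so this separation was in part selected for. That of Gstm3l was set by the minimum of 1 CPM.

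Gstp1, the pi class transferase known as a marker of altered foci in rat liver, rose in CIAKI and stood below control in every icariin library. It was at 510, 547 and 306 CPM in control, 1298, 862 and 1111 CPM in CIAKI and 139, 218 and 295 CPM in icariin libraries. The log2 fold change was 1.29 in CIAKI against control (SE 0.3, adjusted p = 0.00829) and -2.37 in icariin against CIAKI (SE 0.3, adjusted p = 0.000515). Against control the icariin value was -1.08, and the main test did not call it (SE 0.3, adjusted p = 0.197), while DESeq2 on recovered reads did (-1.05, adjusted p = 0.0149). The icariin libraries of both Gstp1 and Gstm1 were spread more than 2-fold.

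The microsomal transferases, membrane enzymes of a separate family, went opposite ways. Mgst1, which protects membrane lipids from peroxidation, was at 97.5, 109 and 105 CPM in control, 364, 232 and 261 CPM in CIAKI and 112, 124 and 122 CPM in icariin libraries. Its log2 fold changes were 1.43 in CIAKI and -1.23 with icariin (SE 0.14 each, adjusted p = 0.00015 and 0.000366). Mgst3, a relative of leukotriene C4 synthase, was at 250, 245 and 271 CPM in control, 78.2, 101 and 98.2 CPM in CIAKI and 234, 276 and 252 CPM in icariin libraries. Its log2 fold changes were -1.47 and 1.46 (SE 0.11 each, adjusted p = 4.11e-05 and 4.7e-05). In CPM, a scale that does not account for transcript length, the sum of both genes was nearly level. It stood at 360 ± 15 CPM in control, 378 ± 57.2 CPM in CIAKI and 374 ± 27.2 CPM in icariin kidneys. Mgst2 stayed under the minimum, at 0.734, 0.624 and 0.652 CPM in CIAKI, 0.11, 0 and 0.621 CPM in control and 0.0553 to 0.0919 CPM in icariin libraries.

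All 3 tested theta class transferases fell in CIAKI, as did 3 of 4 in the kappa, zeta and omega classes. Gstz1, which works in tyrosine breakdown as maleylacetoacetate isomerase, was at 89.2, 110 and 102 CPM in control, 51.6, 42.7 and 44 CPM in CIAKI and 99.7, 103 and 105 CPM in icariin libraries. Its log2 fold changes were -1.11 and 1.14 (SE 0.1 each, adjusted p = 8.07e-05 and 9.25e-05), and the CIAKI libraries lay below all others. Gstt3 was at 624, 510 and 497 CPM in control, 354, 290 and 354 CPM in CIAKI and 475, 500 and 602 CPM in icariin libraries (log2 fold changes -0.71 and 0.66, SE 0.13 each, adjusted p = 0.00261 and 0.00397). CIAKI again lay below both other groups. Gstt1 and Gstt2 lay at -0.44 and -0.52 in CIAKI (adjusted p = 0.0142 and 0.00586), and Gstt4 had no reads. The mitochondrial and peroxisomal Gstk1 lay at -0.44 (adjusted p = 0.00275) and Gsto1, which reduces dehydroascorbate, at -0.47 (adjusted p = 0.0175), while Gsto2 lay at -0.07 (adjusted p = 0.708). The Gstt1 call in CIAKI ended without control 1 (adjusted p = 0.0555), and the Gsto1 call without control 1 (0.0626) or CIAKI 2 (0.0558). In icariin against CIAKI, Gstk1 (0.49), Gstt1 (0.42) and Gsto1 (0.4) were higher, and Gstt2 (0.31, adjusted p = 0.0526) was not called. There the Gstt1 call ended without CIAKI 1, CIAKI 2 or icariin 3 (adjusted p = 0.0547, 0.0511 and 0.0585) and the Gsto1 call without any library except CIAKI 3 and icariin 1 (0.0504 to 0.12). Gstt2 was called in 6 of 20 alternatives, among them without CIAKI 3 (0.43, adjusted p = 0.00807), with quantile normalization (0.0318) and with DESeq2 on recovered reads (0.0396). Proximal tubule markers fell along with these genes (8 of 11, and none rose). Markers of other cells fell too in CIAKI: 6 of 6 of podocytes, 3 of 6 of the thick ascending limb and 3 of 5 of the distal tubule, with none higher. Of 6 principal cell markers 3 fell and 2 rose. The part of cell composition in the result was not tested.

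The alpha class transferases, which are abundant in tubules and also reduce lipid peroxides, gave no call in CIAKI against control, and 1 library decided this. Gsta2 was at 161, 183 and 183 CPM in control, 288, 115 and 135 CPM in CIAKI and 212, 171 and 227 CPM in icariin libraries. Gsta5 was at 338, 358 and 350 CPM in control, 558, 247 and 289 CPM in CIAKI and 451, 387 and 446 CPM in icariin libraries. For both, CIAKI 1 was the highest and CIAKI 2 and 3 the lowest of all 9 libraries. Over all CIAKI libraries the log2 fold changes were -0.09 for Gsta2 and -0.03 for Gsta5 (adjusted p = 0.829 and 0.935). Without CIAKI 1 they were -0.49 and -0.38 (adjusted p = 0.022 and 0.0172), and without CIAKI 2 they were 0.17 and 0.2 (adjusted p = 0.669 and 0.526). Leaving out CIAKI 1 also made Gsta4 (-0.63, adjusted p = 0.00793) and Gsta6 (-0.73, adjusted p = 0.0119) calls, so that 4 of 5 alpha class genes fell, and none did without CIAKI 2 or CIAKI 3.

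Gsta6 was at 14.2, 15 and 17.6 CPM in control, 15, 9.01 and 8.98 CPM in CIAKI and 15.9, 23 and 21.6 CPM in icariin libraries. CIAKI 1 was again the highest of its group. The log2 fold change of Gsta6 was -0.5 in CIAKI (SE 0.21, adjusted p = 0.0797) and 0.84 in icariin against CIAKI (SE 0.21, adjusted p = 0.0114). Gsta4 lay at 0.53 in icariin against CIAKI (adjusted p = 0.0452), a call that ended without any library except control 1 and CIAKI 1 (adjusted p = 0.0557 to 0.128). Without CIAKI 1, Gsta2 and Gsta5 were also higher with icariin (0.69 and 0.68, adjusted p = 0.00609 and 0.00197), so that 4 of 5 were. Gsta3 lay at -0.18 in CIAKI (adjusted p = 0.402). In RefSeq's order Gsta4, Gsta5 and Gsta2 are direct neighbours, and Gsta3 and Gsta6 lie together elsewhere with Gsta1 between them.

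**Figure D3:**
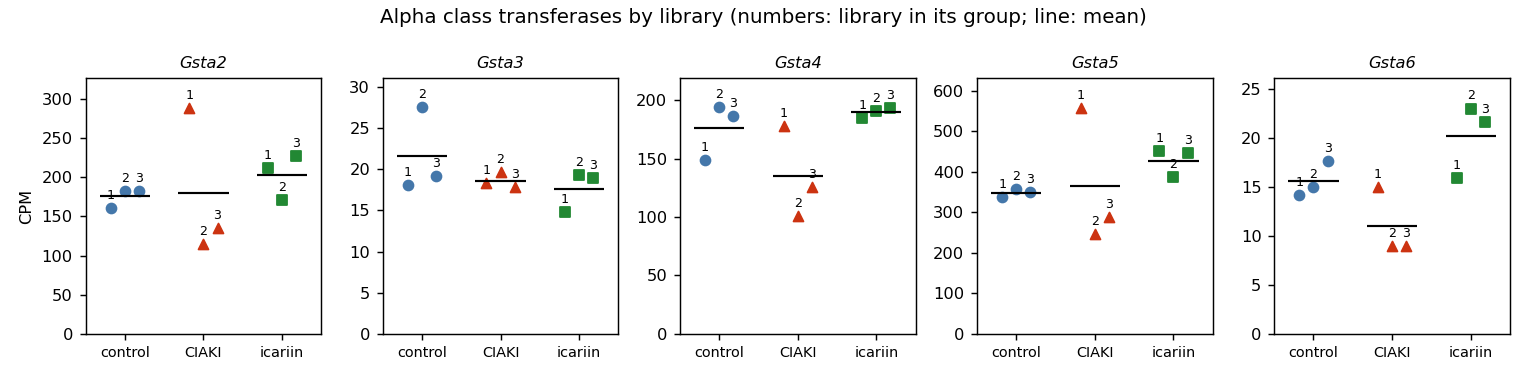
Level of the 5 alpha class transferases in CPM (linear axis from 0) in each library, numbered within its group, with a line at the group mean. CIAKI 1 lies above CIAKI 2 and CIAKI 3 in all panels but that of Gsta3, at 558 CPM for Gsta5 against 247 and 289 CPM.

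Of 6 thioredoxins and glutaredoxins 4 rose in CIAKI. Txn1, cytosolic thioredoxin, went from 109 ± 11.2 to 185 ± 32.2 CPM and stood at 109 ± 6.64 CPM with icariin (log2 fold changes 0.75 and -0.74, adjusted p = 0.00168 and 0.00196). Glrx3, a glutaredoxin that carries iron-sulphur clusters, was at 67.1, 74.8 and 67.5 CPM in control, 124, 109 and 104 CPM in CIAKI and 63, 68.9 and 70.4 CPM in icariin libraries. Its log2 fold changes were 0.68 and -0.73 (SE 0.08 each, adjusted p = 0.000404 and 0.00035), with the CIAKI libraries above all others. Glrx, the classical glutaredoxin, rose by 0.94 in CIAKI (adjusted p = 0.00297) from 4.85, 4.21 and 6.75 to 9.64, 10.6 and 12.6 CPM. With icariin it was at 9.3, 7.54 and 9.57 CPM, below all CIAKI and above all control libraries, and neither difference was called (adjusted p = 0.234 and 0.179). Glrx2 rose by 0.33 in CIAKI (adjusted p = 0.0218), a call that ended without control 1, control 3 or CIAKI 1 (0.0734, 0.0683 and 0.0599). In icariin against CIAKI it lay at -0.28 (adjusted p = 0.044), a call kept without icariin 1 only (adjusted p up to 0.127 without another). Txn2 and Glrx5 lay at -0.16 and -0.22 in CIAKI and were not called. Txn2 was called without CIAKI 2 (-0.25, adjusted p = 0.0488), as it was in icariin against CIAKI (0.28, 0.0353). Glrx5 was called without control 3 in both comparisons (-0.31 and 0.21, adjusted p = 0.0184 and 0.0432).

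Of 6 peroxiredoxins, Prdx1, Prdx2 and Prdx6 rose in CIAKI. Prdx1, a cytosolic thioredoxin-dependent enzyme, was at 499, 546 and 593 CPM in control, 1024, 867 and 957 CPM in CIAKI and 385, 464 and 419 CPM in icariin libraries. The groups were fully separate, with icariin lowest. The log2 fold change was 0.8 in CIAKI (SE 0.1, adjusted p = 0.000487) and -1.17 in icariin against CIAKI (SE 0.1, adjusted p = 0.00011). Against control the icariin value of -0.37 was not called by limma (adjusted p = 0.204) but by DESeq2 (-0.37, 0.0148). Prdx6, which uses glutathione as its reductant, rose from 249 ± 6.6 to 391 ± 35.7 CPM and stood at 281 ± 14.7 CPM with icariin (log2 fold changes 0.65 and -0.47, adjusted p = 0.000361 and 0.00183). Prdx2, which is also abundant in red blood cells, rose by 0.19, from 173 ± 6.1 to 197 ± 6.55 CPM (adjusted p = 0.0377). That call ended without any library except CIAKI 1, icariin 1 and icariin 3 (adjusted p = 0.0553 to 0.128). Red cell genes summed to 253 to 1437 CPM in control, 2139 to 2627 CPM in CIAKI and 211 to 1449 CPM in icariin libraries, and 4 of 6 rose in CIAKI. Their part in the Prdx2 result was not tested. Prdx3 of mitochondria, Prdx4 of the endoplasmic reticulum and Prdx5 of mitochondria and peroxisomes lay between 0.04 and 0.12 in CIAKI and were not called.

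Of 3 superoxide dismutases, only the extracellular enzyme Sod3 was called, and it fell in CIAKI. It was at 292, 196 and 295 CPM in control, 150, 152 and 167 CPM in CIAKI and 301, 225 and 250 CPM in icariin libraries. Control 2 was lower than the other controls but above all CIAKI libraries. The log2 fold changes were -0.72 and 0.72 (SE 0.16 each, adjusted p = 0.00755 and 0.00809). Sod1, the cytosolic copper-zinc enzyme, stood at 274 ± 43.6 CPM in control, 207 ± 34.8 CPM in CIAKI and 240 ± 19.3 CPM in icariin kidneys. Its value of -0.41 in CIAKI lay at the threshold (adjusted p = 0.0503) and passed it without CIAKI 1 (-0.49, adjusted p = 0.0409), with DESeq2 (0.0217) and with 4 other settings. Sod2, the mitochondrial manganese enzyme, lay at -0.03 in CIAKI (adjusted p = 0.884) and 0.25 in icariin against CIAKI (adjusted p = 0.209). The latter value was called without CIAKI 2 (0.4, adjusted p = 0.0386).

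**Figure D4:**
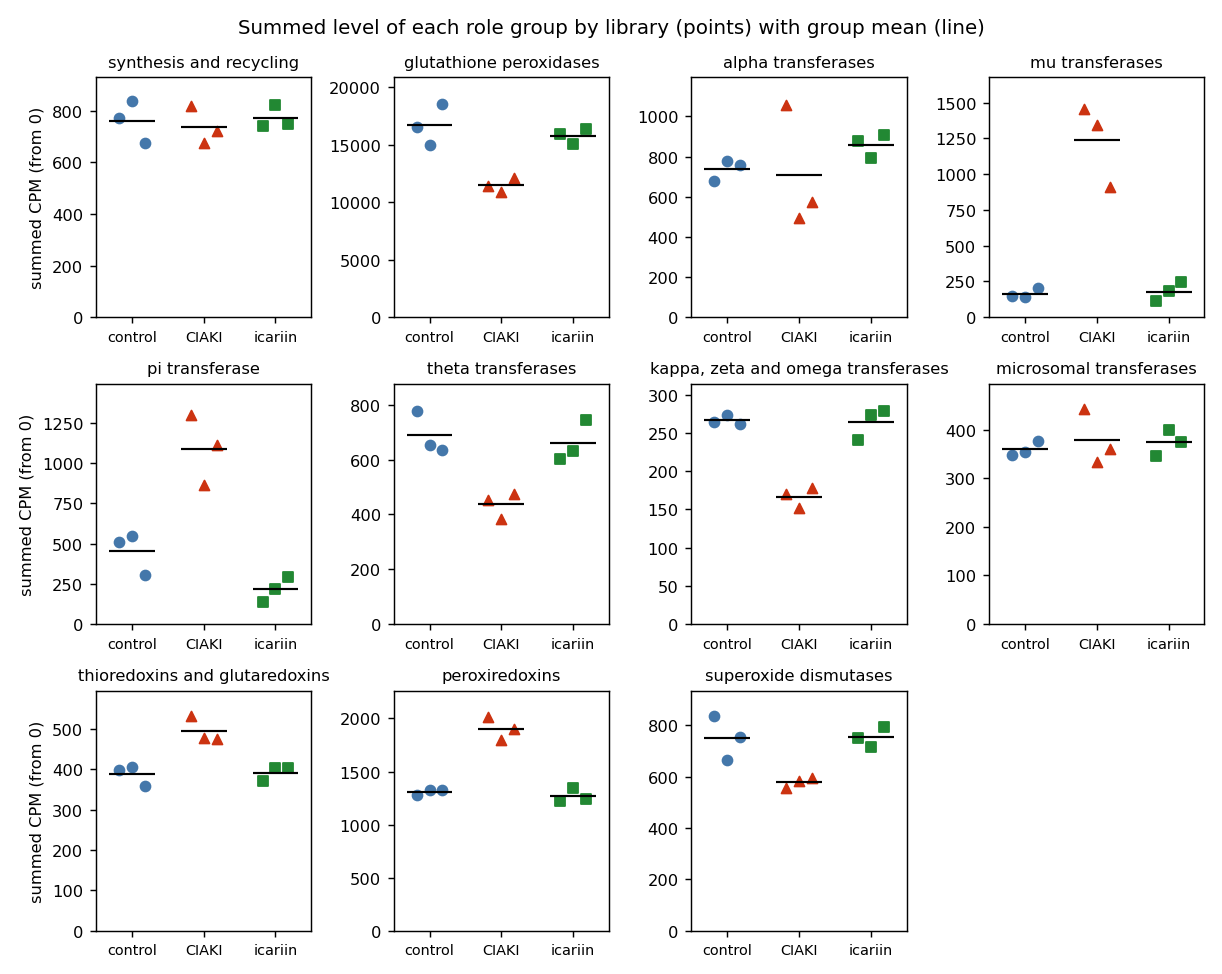
Summed CPM of the tested members of each role group in each library (linear axes from 0, own scale per panel), with circles for control, triangles for CIAKI, squares for icariin and a line at the group mean. Mu class transferases stood at 911 to 1456 CPM in CIAKI against 111 to 243 CPM in the other libraries, and CIAKI 1 stands apart in the alpha class at 1057 CPM.

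Other genes of the pathway were described by lists chosen apart from the members. Of 18 tested genes of glutathione synthesis, breakdown and transport, 4 rose and 6 fell in CIAKI. Abcc2, an efflux pump for glutathione conjugates, and Slc7a11, the cystine carrier that supplies cysteine, rose by 4.81 and 3.43. Slc7a11 went from 0.368 ± 0.107 to 15.8 ± 8.71 CPM and stood at 0.264 ± 0.0337 CPM with icariin, and edgeR on recovered reads gave 5.42 for its rise. Slc7a11 and Chac1, both counted among the 4 that rose, passed the minimum of 1 CPM only through the CIAKI libraries, so they had to differ. Abcc2 went from 68.4 ± 7.69 to 2018 ± 727 CPM. Anpep and Dpep1, peptidases that act on glutathione products at the brush border, lay at -1.45 and -1.03. Gclc and Gclm, the subunits of the enzyme that limits synthesis, were not called (-0.59 and -0.26, adjusted p = 0.0621 and 0.344). Of 8 genes of NADPH supply 2 rose and 2 fell. Nnt and Idh2, which make NADPH in mitochondria, fell (-0.77 and -0.54), and Pgls, a lactonase, rose by 0.28. The other gene that rose is not reported here. The Pgls call ended without any control library (adjusted p = 0.0673 to 0.0911), CIAKI 1 (0.0815) or CIAKI 2 (0.0779), and the Idh2 call without control 2, CIAKI 1 or CIAKI 3 (0.0562, 0.0559 and 0.0534).

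Of 14 thioredoxin partners and other peroxide-removing genes, 4 rose and 6 fell in CIAKI. Txnrd1, the reductase of cytosolic thioredoxin, and Txnip, which binds thioredoxin, rose by 1 and 0.6, while Msra, a methionine sulphoxide reductase, and Ccs, the copper chaperone of Sod1, lay at -1.02 and -0.97. Of 9 genes of selenoprotein synthesis and selenium supply 1 rose and 2 fell. Lrp8, a receptor of selenoprotein P, rose by 2.6, and Scly and Sepsecs, which handle selenium and make selenocysteine tRNA, lay at -0.99 and -0.48. Of 6 genes of glyoxalase and thiol ester handling 3 fell and none rose, with Lancl1 at -0.61 and Hagh, which releases glutathione from its lactate ester, at -0.36. Over the 55 tested genes of all 5 lists, 11 rose and 19 fell in CIAKI, against 20.8% and 20.5% of all features. In icariin against CIAKI, 21 were higher and 9 lower, against 19.2% and 20.2% of all features. Among them Abcc2 (-4.81), Slc7a11 (-3.55, and -5.89 with edgeR), Lrp8 (-2.81) and Txnrd1 (-1.32) were lower, and Anpep (1.58), Msra (1.07) and Ccs (1.04) higher. The 9 include Slc7a11 and Chac1, which passed the minimum only through the CIAKI libraries. In icariin against control limma called none of the 55, in a comparison that called 0.628% of all features, so this says little about these lists.

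Icariin and control kidneys were set side by side for all members. The values of 13 of the 43 members (30.2%) did not overlap between these groups, against 19.3% of all features, and limma called Gpx2 among them. Every icariin library lay above every control library for Gpx1, Gpx2, Gsta5, Gstm2, Mgst1, Glrx, Prdx5, Prdx6 and Sod2, and below for Ggct, Gstp1, Gstt2 and Prdx1. Gpx1 was at 390, 379 and 438 CPM in control and 558, 581 and 488 CPM in icariin libraries, a log2 difference of 0.43 (SE 0.12, adjusted p = 0.197). For CIAKI against control and icariin against CIAKI, 28 members each (65.1%) did not overlap, against 53.4% and 50.7% of all features. Both counts include Gstm3l, which passed the minimum of 1 CPM only through the CIAKI libraries, so its separation was set by that filter.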

How the data were processed

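Rat kidneys were flash frozen, RNA was taken with Trizol and TruSeq libraries were sequenced, per the labels' protocols. Bowtie 0.12.2 and the mouse build mm8 are named in the submitters' processing notes, although the identifiers are rat Ensembl genes. The counter, strand setting and handling of shared reads are not stated in those sources. The authors deposited CPM for all features. Each value was a whole multiple of 1 step per library, so whole reads were recovered for 100% of values (within 0.1), and these matched 23850 of 23850 read counts in a second deposited table, of 3975 selected mRNAs. FPKM values come from that deposited table.

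limma 3.58.1 (intensity trend, group as factor, all 9 libraries, two-sided) was run on log2(CPM + 1) of features reaching 1 CPM in 3 or more libraries. Fold changes on that scale understate those of low genes. P-values were adjusted by Benjamini-Hochberg over 16731 features. Alternatives were other pseudocounts, filters, scalings and sample sets, edgeR 4.0.16 and DESeq2 1.42.0 on recovered reads, a replicate block and leaving out each library. The fit was run on simulated data in which far fewer features changed than were called here. That run does not measure its error in these data. Given with values by library are members called with an absolute log2 fold change of at least 1 in CIAKI against control or icariin against CIAKI, members called in icariin against control, and otherwise the member of a role group with the smallest p in CIAKI against control. Other genes named are up to 2 called per list and direction, of which 1 is not reported here. Gsta2, Gsta5, Gpx1, Gpx3, Glrx, Gsr, Gss, Gclc and Gclm were added for their values, and Chac1 for how it passed the minimum, outside this rule. Other members are given by fold change. Members and lists were chosen with earlier results of these data known. Each group had 3 rats, per the series design.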

Additional observations from a re-analysis of the deposited data

How the results depend on the processing

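Over 20 alternatives, 13 to 15 members rose and 7 to 15 fell in CIAKI against control, and 12 to 13 were lower and 8 to 14 higher in icariin against CIAKI. Leaving out 1 library spans 13 to 15, 7 to 15, 12 to 13 and 8 to 12. The highest count of members that fell, 15, came without CIAKI 1. Of the 25 and 24 members called in these comparisons, 20 and 20 kept their call in every alternative that tested them, and none changed sign. Both counts include Gstm3l, which was tested in 19 alternatives, as it did not reach the minimum of 5 CPM. It passed the minimum of 1 CPM only through the CIAKI libraries, so its kept call is no sign of stability. In icariin against control, 1 member was called higher in the main test. That count was 0 with no filter on low values, with only the 2 groups compared, with edgeR and with the replicate block, 0 to 1 when a library was left out, and 3 with DESeq2 (Gpx1, Gpx2 and Prdx5). The count of lower members was 0 in the main test and 2 with DESeq2 (Gstp1 and Prdx1), and 0 when a library was left out. DESeq2 called more features here in general, 524 of 16731 against 105 in the main test. Libraries with the same number did not deviate together (correlations of -0.035 to 0.081), so the replicate block has no basis in pairing.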

Other observations

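The authors' deposited table of selected mRNAs, which covers CIAKI and icariin libraries only, holds 17 of the members in FPKM, a scale per transcript length on which genes can be set side by side. The sources used here do not give the rule of selection, but the deposit labels these mRNAs DE (differentially expressed). All 17 were called in icariin against CIAKI above, so differences between these groups here are no separate support. The order below holds for these 17 members and not for all 43. In CIAKI kidneys Gstp1 had the highest mean of them, at 1088 ± 201 FPKM (SD, n = 3), followed by Prdx1 at 820 ± 56.4 FPKM, Gstm2 at 706 ± 329 FPKM and Txn1 at 450 ± 69.5 FPKM. Gstp1, at 1270, 870 and 1130 FPKM, overlapped Gstm2, at 784, 988 and 345 FPKM. In icariin kidneys Prdx1 stood at 374 ± 33.5 FPKM, Mgst3 at 333 ± 26.4 FPKM and Txn1 at 273 ± 19 FPKM, and Mgst3 overlapped neither Txn1 nor its own CIAKI values of 97.9, 130 and 128 FPKM. Gstp1 stood at 223 ± 82.8 FPKM and Gstm2 at 66.1 ± 12.4 FPKM there. Mgst1 and Mgst3, the microsomal transferases, exchanged places, with 231 ± 51.1 and 119 ± 18 FPKM in CIAKI and 98.8 ± 5.84 and 333 ± 26.4 FPKM in icariin kidneys.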
